A study of Mus musculus with 6 samples.

Results

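Haem is made from glycine and succinyl-CoA in a chain of enzymes that starts in the mitochondrion, passes through the cytosol and ends in the mitochondrion again, where iron is inserted. The 9 genes described here are the erythroid first enzyme Alas2, the later enzymes Alad, Uros, Urod, Cpox, Ppox and Fech, and the mitochondrial carriers Slc25a37 and Slc25a38. They were picked by gene symbol, and 9 of 9 were found among 23203 named genes of the count table. The mouse spleen forms red cells in adult life, and developing red cells make far more haem than other cells do, while every nucleated cell needs some for its cytochromes. Alas2 is the red cell form of the first enzyme, and Alas1 is the form that other cells use.

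The libraries were made from endothelial cells of the spleen. Per the labels, all mice carried a knockout of Apoe, the apolipoprotein that clears lipoprotein remnants, without which dietary cholesterol builds up in the blood. Apoe transcripts were still counted, at 34.1 ± 3.97 CPM in MLKL ASO and 56.6 ± 16.7 CPM in control ASO mice (SD, n = 3 each), and which part of the gene these reads cover was not tested. MLKL ASO mice (numbers 1603, 1604 and 1607) had received an antisense oligonucleotide, a short synthetic nucleic acid that lowers the RNA it pairs with, directed against Mlkl, the pseudokinase that breaks the plasma membrane in necroptosis. Control ASO mice (numbers 1601, 1602 and 1608) had received a control oligonucleotide, and both groups spent 8 weeks on their oligonucleotide and a high cholesterol diet. Each mouse gave 1 library, and untreated or normally fed mice were not part of the comparison. The labels call the MLKL ASO group an Mlkl knockdown (Mlkl KD) and name no cell type to which the oligonucleotide was restricted. The sources used here state neither the sex and age of the mice nor the way the cells were isolated.

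RNA sequencing gave 59988846 to 85724084 estimated counts per library in MLKL ASO mice and 67699450 to 87776706 in control ASO mice. Levels are in CPM, the count of a gene scaled to a common library size. Mlkl measured 7.52, 5.80 and 3.73 CPM in MLKL ASO mice 1603, 1604 and 1607, against 30.1, 31.5 and 38.7 CPM in control ASO mice 1601, 1602 and 1608. Its groups did not overlap, and its log2 fold change (MLKL ASO minus control ASO) was -2.56. The quasi-likelihood test of edgeR gave an unadjusted p of 2.36e-05 and an adjusted p of 0.0666. In the authors' deposited DESeq2 results Mlkl had a log2 fold change of -2.69 and an adjusted p of 2.84e-15 (Wald test). All 10 endothelial markers looked for were present, and their summed level was 2966 to 3409.6 CPM in MLKL ASO mice and 2295 to 4723 CPM in control ASO mice. The preparations were not endothelium alone. Red cell RNA was present in each library, with globin genes at 7.17% to 15.1% of counts in MLKL ASO mice and 4.77% to 11.7% in control ASO mice. Control ASO mouse 1608 stood apart from the rest. It lay at 90.8 on the first principal component of log2 CPM, which held 30.2% of the variance. Control ASO mice 1601 and 1602 lay at -1.66 and 17.1, and MLKL ASO mice 1603, 1604 and 1607 at -28.7, -44.7 and -32.9. The groups thus did not overlap on this component either. In mouse 1608 the summed level of 8 megakaryocyte markers was 68.8 CPM. That sum was 1334 to 2650 CPM in MLKL ASO mice and 973 and 1566 CPM in the other control ASO mice.

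Upstream sequence is shown for the first enzyme and for the pathway enzymes with the largest and the smallest group difference, Cpox and Ppox. Promoter sequences from RefSeq (GRCm38.p6) were found for 7 of the 9 genes, in 9 windows of 250 bases before a start site. The letters searched were AGATAA, the variant AGATAG, the variant TGATAA and lastly the variant TGATAG, the core that erythroid GATA factors bind, on both strands. Capitals mark these matches, all of which read on the opposite strand here. Whole windows were searched, but bases that GENCODE M21 annotates as exon are not shown, so the Alas2 stretch is shorter.
Alas2, chrX:150547167-150547374, plus strand: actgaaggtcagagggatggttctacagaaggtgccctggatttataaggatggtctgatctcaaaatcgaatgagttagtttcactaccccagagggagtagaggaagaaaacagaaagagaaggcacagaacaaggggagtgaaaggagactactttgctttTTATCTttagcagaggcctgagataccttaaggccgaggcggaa
Cpox, chr16:58669958-58670207, plus strand: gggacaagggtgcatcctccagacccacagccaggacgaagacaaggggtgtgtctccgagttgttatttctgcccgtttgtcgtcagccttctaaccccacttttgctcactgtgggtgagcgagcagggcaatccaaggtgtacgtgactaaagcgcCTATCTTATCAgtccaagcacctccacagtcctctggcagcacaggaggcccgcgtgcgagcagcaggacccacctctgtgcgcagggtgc
Ppox, chr1:171281187-171281436, minus strand: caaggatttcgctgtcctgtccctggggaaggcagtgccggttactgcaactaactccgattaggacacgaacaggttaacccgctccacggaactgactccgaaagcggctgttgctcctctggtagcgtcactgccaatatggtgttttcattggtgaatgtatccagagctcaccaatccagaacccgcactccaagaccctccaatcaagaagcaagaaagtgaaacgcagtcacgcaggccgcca
Alas2 has a match 86 to 81 bases before its start site. Cpox has 2 matches, at 91 to 86 and at 86 to 81 bases before its start, which share 1 base. Ppox has none. Of the 7 genes, 3 held a match in at least 1 window (Alas2, Cpox and Uros), where 26.5% of all 32851 RefSeq promoter windows searched did. This count and those that follow are by gene, over 9 windows of 7 genes, while the shares are by window, so they are unlike measures. The CACC box letters CCNCNCCC, bound by Klf1-type factors, were found on either strand in 4 of the 7 genes and in 45.9% of all windows, and TATAAA on the gene strand in 0 of the 7 and 7.59% of all windows. The 4 genes were Alad, Alas2, Slc25a38 and Uros, and the matches overlap one another in some windows. Those of Alas2 lie wholly within the 42 bases of its window annotated as exon, which are not shown. The matches of Slc25a38 lie partly in bases annotated as exon.

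The messenger of Alas2 also carries an iron-responsive element, a hairpin through which iron regulatory proteins hold back its translation when iron is short. It lies in the leader of the messenger, and the 28 bases around it in the GENCODE M21 transcripts are given with the loop in capitals.
Alas2 iron-responsive element: tggttcgtcctCAGTGCagggcaacagg
Messenger levels such as those below do not read this step.

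None of the 9 genes was called different between MLKL ASO and control ASO mice in the edgeR test over all genes, while the mean level of each was higher in MLKL ASO mice. The ratio of mean levels ran from 1.05 for Ppox to 2.04 for Cpox. Adjusted p at 0.05 called 0 members higher and 0 lower, where the background was 0.00507% of 19741 genes in each direction and 0.0101% in all. At an unadjusted p under 0.05, 3 members were higher (Alad, Uros and Cpox) and 0 lower, where 4.86% of all genes were higher and 7.13% lower. The groups did not overlap in 2 members, Alad and Cpox, both higher in MLKL ASO mice, and 8.73% of all genes were apart in that direction. The median log2 fold change was 0.57 over the 9 members and -0.016 over all genes tested. All 9 members were above 0, as were 48% of all genes. As these are bulk libraries, a change in the number of cells that make haem cannot be told apart from a change in RNA per cell. How many RNA molecules come from endothelium and how many from red cell precursors was not measured either.

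**Figure D1:**
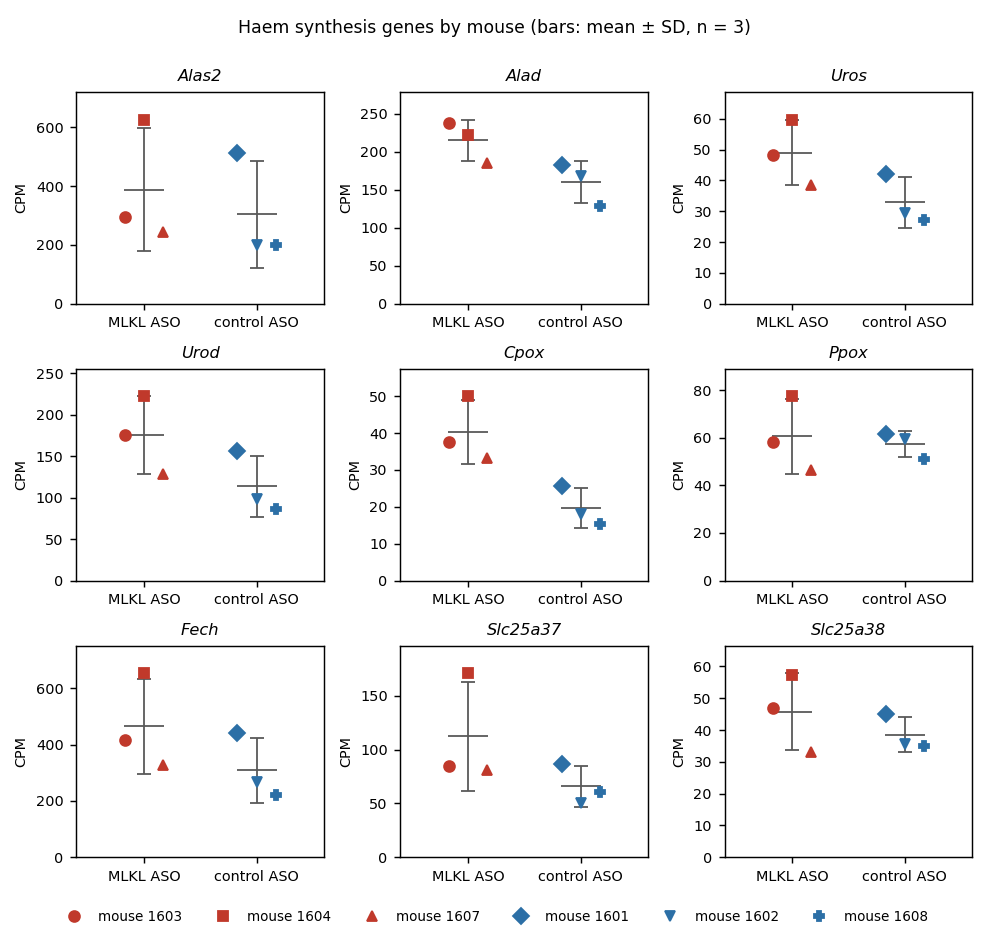
Level of each of the 9 haem synthesis genes in CPM by mouse, MLKL ASO left and control ASO right, with the group mean and SD (n = 3 each). Mouse 1604 is the highest in 8 of the 9 panels, and the groups are apart in the Alad and Cpox panels.

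At the start of the chain, Alas2, which joins glycine to succinyl-CoA in red cell precursors, measured 296, 626 and 243 CPM in MLKL ASO mice 1603, 1604 and 1607. In control ASO mice 1601, 1602 and 1608 it measured 514, 198 and 199 CPM. A single mouse in each group, 1604 and 1601, stood well above its companions, and the groups overlapped widely. Alas2 averaged 388 ± 208 CPM in MLKL ASO mice and 304 ± 182 CPM in control ASO mice (SD, n = 3 each). The log2 fold change was 0.35, its standard error 0.48 and its 95% interval -0.77 to 1.48 (edgeR adjusted p = 0.814). Without mouse 1604 it was -0.18, leaving out mouse 1601 gave 0.97, and leaving out mouse 1608 gave 0.12, so the sign rested on a single library.

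Slc25a38, the carrier that brings glycine into the mitochondrion for this step, showed a small difference. Its levels were 47.0, 57.2 and 33.1 CPM in MLKL ASO mice 1603, 1604 and 1607 and 45.0, 35.7 and 35.1 CPM in control ASO mice 1601, 1602 and 1608. The lowest value of all 6 mice belonged to MLKL ASO mouse 1607. The log2 fold change was 0.25 with a 95% interval from -0.26 to 0.75 (edgeR adjusted p = 0.692), and 0.05 without mouse 1604.

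The cytosolic enzymes were higher in mean in MLKL ASO mice. Alad, which condenses the product of the first step into porphobilinogen, measured 238, 222 and 184 CPM in MLKL ASO mice 1603, 1604 and 1607, against 182, 168 and 129 CPM in control ASO mice 1601, 1602 and 1608. The groups did not overlap, by a margin of about 2 CPM between mice 1607 and 1601. Alad averaged 215 ± 27.4 CPM in MLKL ASO mice and 160 ± 27.9 CPM in control ASO mice (SD, n = 3 each). The log2 fold change was 0.43 (standard error 0.17, edgeR adjusted p = 0.390), and 0.29 without mouse 1608. An exact two-sided permutation test of 3 mice against 3 cannot go below p = 0.1, which is what separate groups such as these give. On the log2 scale, Alad varied least of the members within the MLKL ASO group, with an SD of 0.19, and had an SD of 0.26 within the control ASO group. Alas2 varied most in both groups, with an SD of 0.72 among MLKL ASO and 0.79 among control ASO mice.

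Uros, which closes the porphyrin ring, and Urod, which trims its side chains, ranked the mice alike. Uros measured 48.4, 59.7 and 38.6 CPM in MLKL ASO mice 1603, 1604 and 1607 and 42.2, 29.3 and 27.1 CPM in control ASO mice 1601, 1602 and 1608. Urod measured 175, 222 and 128 CPM in MLKL ASO mice 1603, 1604 and 1607 and 156, 98.7 and 86.3 CPM in control ASO mice 1601, 1602 and 1608. In both genes mouse 1604 was highest, mouse 1608 was lowest, and control ASO mouse 1601 lay above MLKL ASO mouse 1607, so the groups overlapped by that pair. The log2 fold changes were 0.57 (standard error 0.22) for Uros (edgeR adjusted p = 0.392) and 0.62 (standard error 0.27) for Urod (edgeR adjusted p = 0.424).

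Cpox, the oxidative decarboxylase that makes protoporphyrinogen between the mitochondrial membranes, had the largest difference of the 9. It measured 37.7, 49.9 and 33.1 CPM in MLKL ASO mice 1603, 1604 and 1607, against 25.7, 18.2 and 15.2 CPM in control ASO mice 1601, 1602 and 1608. Each MLKL ASO mouse lay above each control ASO mouse. Cpox averaged 40.2 ± 8.70 CPM in MLKL ASO mice and 19.7 ± 5.39 CPM in control ASO mice (SD, n = 3 each). The log2 fold change was 1.03 with a 95% interval from 0.47 to 1.59 (standard error 0.24, edgeR adjusted p = 0.282). The call depended on the tool. DESeq2 on the same counts put Cpox past the threshold (log2 fold change 1.04, adjusted p = 0.0129), with 1.09% of 21813 genes called higher and 1.33% lower. Limma-voom called 0 members and 0.0456% of genes higher, and gave Cpox an adjusted p of 0.116. Over all alternatives tried, the adjusted p of Cpox ran from 0.0129 to 0.698. In the authors' deposited table it had a log2 fold change of 1.01 and an adjusted p of 0.0281, with 0.872% of its tested rows called higher. The edgeR log2 fold change stayed between 0.84 and 1.27 when any single mouse was left out.

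Ppox, the oxidase that follows Cpox, and Fech, the ferrochelatase that inserts iron, differed in their pattern. Ppox measured 58.0, 77.4 and 46.3 CPM in MLKL ASO mice 1603, 1604 and 1607 and 61.7, 59.5 and 51.1 CPM in control ASO mice 1601, 1602 and 1608. Both the highest and the lowest value lay in the MLKL ASO group. Its log2 fold change was 0.08 with a 95% interval from -0.38 to 0.54 (edgeR adjusted p = 0.916). Fech measured 415, 653 and 326 CPM in MLKL ASO mice 1603, 1604 and 1607 and 440, 266 and 221 CPM in control ASO mice 1601, 1602 and 1608. Control ASO mouse 1601 exceeded the MLKL ASO mice 1603 and 1607 in this gene. The Fech log2 fold change was 0.59 (standard error 0.33, edgeR adjusted p = 0.522), 0.26 without mouse 1604, 0.94 without mouse 1601 and 0.39 without mouse 1608.

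Slc25a37, called mitoferrin-1, carries iron into the mitochondrion of red cell precursors for the Fech step. It measured 85.2, 171 and 81.4 CPM in MLKL ASO mice 1603, 1604 and 1607 and 87.0, 50.2 and 60.8 CPM in control ASO mice 1601, 1602 and 1608. Mouse 1604 alone lay far above the rest, and control ASO mouse 1601 reached the level of the other MLKL ASO mice. The log2 fold change was 0.77 (standard error 0.33, edgeR adjusted p = 0.419) and 0.33 without mouse 1604. Without mouse 1608, 8 of the 9 members were still above 0, and Ppox was at -0.0036.

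**Figure D2:**
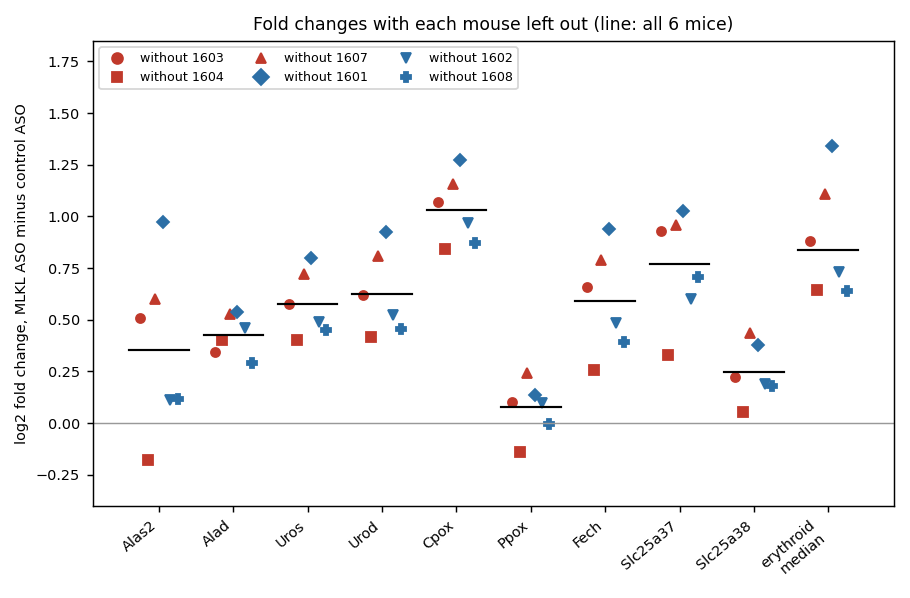
Log2 fold change (MLKL ASO minus control ASO, edgeR) of each haem synthesis gene and the median of 19 erythroid markers, with all 6 mice (line) and with each mouse left out (points). Leaving out mouse 1604 lowers most values and turns Alas2 to -0.18 and Ppox to -0.14, while leaving out mouse 1601 raises the erythroid median to 1.34.

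To set the levels of the members side by side, they were taken per kilobase of messenger. The lengths were those of GENCODE M21 coding transcripts that have a RefSeq messenger. On this scale the mean level in MLKL ASO mice was 191 to 205 CPM per kilobase for Alas2, depending on the transcript, 172 to 178 for Alad, 118 for Urod and 70.8 for Fech. The same mean level was 149 to 161 CPM per kilobase for Alas2 in control ASO mice, with 128 to 132 for Alad, 76.2 for Urod and 47.0 for Fech. In between lay Ppox with 33.2 CPM per kilobase in MLKL ASO and 31.5 in control ASO mice, Slc25a37 with 26.9 in MLKL ASO and 15.8 in control ASO mice, and Slc25a38 with 25.6 in MLKL ASO and 21.5 in control ASO mice. Uros had 27.8 to 46.8 CPM per kilobase in MLKL ASO and 18.6 to 31.4 in control ASO mice, by transcript. At the low end stood Cpox with 13.0 CPM per kilobase in MLKL ASO and 6.36 in control ASO mice. Alas2 and Alad do not differ beyond the spread of Alas2 between mice. The order also depends on which transcript is present, which the deposited table does not show.

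Alas1, which makes the first step in cells outside the red cell line, is not among the 9 and had another pattern. It measured 469, 419 and 512 CPM in MLKL ASO mice 1603, 1604 and 1607 and 201, 366 and 450 CPM in control ASO mice 1601, 1602 and 1608. Mouse 1601, second highest for Alas2, was lowest for Alas1, and mouse 1607 was highest. The log2 fold change of Alas1 was 0.46 with a 95% interval from -0.18 to 1.10 (edgeR adjusted p = 0.546). Leaving out mouse 1601 gave 0.20 for Alas1, leaving out mouse 1608 gave 0.72, and the erythroid covariate described below gave 1.12.

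Partner genes of the pathway were compared by lists, none of which had a member past the edgeR threshold (0 higher and 0 lower in each, with 1 gene higher and 1 lower among all tested). Of 19 mitochondrial partners of haem and iron-sulphur synthesis 14 were above 0, with a median log2 fold change of 0.14. At an unadjusted p under 0.05, 1 was higher and 1 was lower, where 4.86% of all genes were higher and 7.13% lower. The higher was Tmem14c, which moves protoporphyrinogen across the inner membrane, with 122 ± 13.7 CPM in MLKL ASO mice and 92.4 ± 14.7 CPM in control ASO mice (SD, n = 3 each). The lower was Slc25a28, the mitoferrin-2 of cells outside the red cell line. Slc25a28 measured 10.1, 8.65 and 9.66 CPM in MLKL ASO mice 1603, 1604 and 1607 and 13.2, 18.2 and 12.4 CPM in control ASO mice 1601, 1602 and 1608. Slc25a28 was the 1 gene of these 19 whose groups did not overlap, where 10% of all genes were apart in that direction. Its log2 fold change was -0.63 (standard error 0.20, edgeR adjusted p = 0.346). Abcb10, an inner membrane transporter that binds mitoferrin-1, measured 52.2 ± 20.4 CPM in MLKL ASO mice and 36.4 ± 15.1 CPM in control ASO mice (SD, n = 3 each).

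Iron uptake and haem sensing genes were 11 above 0 of 13, with a median log2 fold change of 0.045. At an unadjusted p under 0.05, 1 of the 13 was higher and 0 lower, where 4.86% of all genes were higher and 7.13% lower. That gene was Tfrc, the transferrin receptor through which red cell precursors take up iron. Tfrc measured 113, 186 and 93.2 CPM in MLKL ASO mice 1603, 1604 and 1607 and 100.3, 50.5 and 53.9 CPM in control ASO mice 1601, 1602 and 1608. Its groups overlapped through mouse 1601, and its log2 fold change was 0.94 (standard error 0.34, edgeR adjusted p = 0.370). Genes of haem breakdown and export were 4 above 0 and 5 below 0, with a median of -0.079. Hmox1, the haem oxygenase that opens the ring, measured 58.3 ± 17.7 CPM in MLKL ASO mice and 69.7 ± 34.0 CPM in control ASO mice (SD, n = 3 each). Slc40a1, the iron exporter ferroportin and the member of this list with the smallest p, measured 143 ± 50.3 CPM in MLKL ASO mice and 208 ± 96.1 CPM in control ASO mice (edgeR adjusted p = 0.597).

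**Figure D3:**
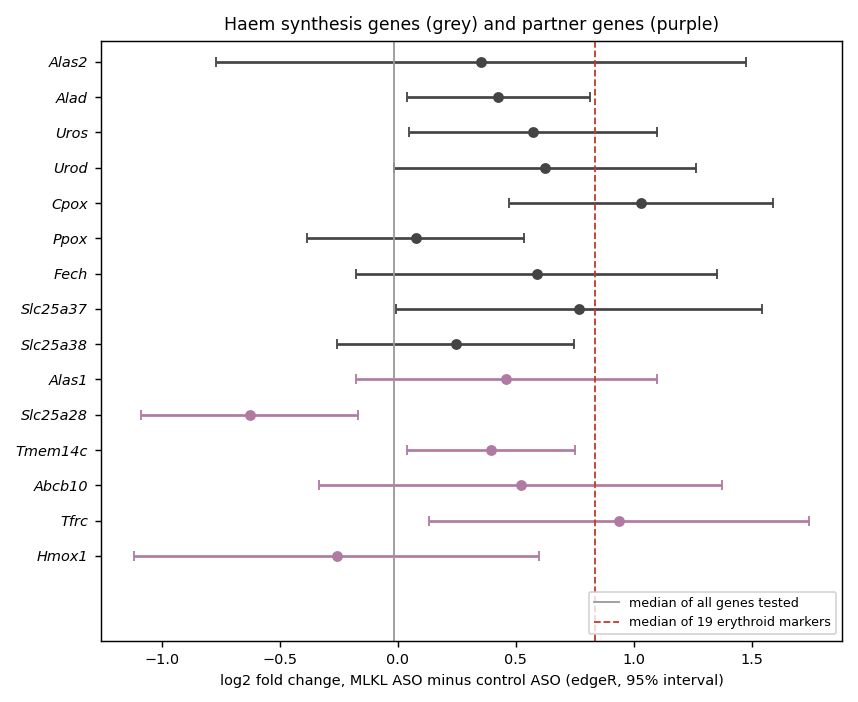
Log2 fold change (MLKL ASO minus control ASO) with its 95% interval in edgeR for the 9 haem synthesis genes and 6 partner genes, beside the median of all genes tested (-0.016) and of 19 erythroid markers (0.84). The interval of Alas2 runs from -0.77 to 1.48, that of Cpox from 0.47 to 1.59, and Slc25a28 lies below 0.

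The summed erythroid markers ranked the mice as Uros and Urod did, while the other members ranked them otherwise. The list holds no member of the pathway, and 19 of its 20 genes were in the table, with 0 of these at a count of 0 throughout. All 19 were above 0, where 48% of all genes were, with a median log2 fold change of 0.84 and 0 past the edgeR threshold. At an unadjusted p under 0.05, 6 of the 19 were higher in MLKL ASO mice, where 4.86% of all genes were. The summed level of the 19 was 2201, 2829 and 1463 CPM in MLKL ASO mice 1603, 1604 and 1607 and 1794, 949 and 809 CPM in control ASO mice 1601, 1602 and 1608. The order of the mice was that of Uros and Urod, with 1604 highest and 1608 lowest, and the groups overlapped through mice 1601 and 1607. Rhag, the Rh-associated glycoprotein, stood at 111 ± 48.3 CPM in MLKL ASO mice and 46.6 ± 19.7 CPM in control ASO mice (SD, n = 3 each). Slc4a1, the anion exchanger of the red cell membrane, measured 201 ± 102 CPM in MLKL ASO and 141 ± 85.9 CPM in control ASO mice. The transcription factor genes Gata1 and Klf1, which drive the haem genes in red cell precursors, measured 65.9 ± 27.1 and 151 ± 42.5 CPM in MLKL ASO mice. In control ASO mice Gata1 measured 39.2 ± 21.6 and Klf1 86.6 ± 40.1 CPM.

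Globins, which take up the haem, had 5 of 7 genes past the count filter, all 5 above 0 with a median log2 fold change of 0.46. Hba-a1 measured 26285 ± 11200.2 CPM in MLKL ASO and 19073 ± 11272 CPM in control ASO mice (SD, n = 3 each), and Hbb-bs measured 31796 ± 15780 CPM in MLKL ASO and 23454 ± 15282 CPM in control ASO mice. The genes nearest to Alas2 across mice were adult globins, ahead of every other pathway enzyme. Likeness was measured as the root-mean-square distance between the log2 levels of Alas2 and of another gene over the 6 mice, each centred on its own mean. Of 9493 genes with a mean of at least 10 CPM, the nearest to Alas2 were Hbb-bt at 0.076, Hbb-bs at 0.085, Hba-a2 at 0.11, Hba-a1 at 0.13 and Bpgm, the red cell bisphosphoglycerate mutase, at 0.16. Hbb-bh1, an embryonic globin and the one with the smallest p, stood at 0.271 ± 0.146 CPM in MLKL ASO and 0.117 ± 0.0579 CPM in control ASO mice. The near-identical globin copies share reads, so their single values are uncertain. For Alad the nearest genes were not of this kind. They were Ssbp3 at 0.041, Rpa3 at 0.059, Rfc3 at 0.064, Dek at 0.064 and Nudcd2 at 0.068, of which Rpa3 and Rfc3 encode subunits of replication protein complexes.

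The pathway genes were also set against the erythroid markers of the same library. For each mouse the mean log2 CPM of the 19 markers was subtracted from the log2 CPM of the gene. The marker mean itself was 6.14 in MLKL ASO and 5.24 in control ASO mice, a difference of 0.90, which lowers the difference of each gene by as much. Of 9 members, 8 had a lower mean in MLKL ASO than in control ASO mice and 1, Cpox, a higher one, where 93.1% of all 19741 genes had a lower mean, and the median difference of all genes was -0.90. Alas2 lay 2.04, 2.63 and 2.32 above the marker mean in MLKL ASO mice 1603, 1604 and 1607 and 2.98, 2.65 and 2.91 above it in control ASO mice 1601, 1602 and 1608. The difference of group means was -0.52 on the log2 scale. The groups did not overlap in 3 members, Alas2, Fech (difference -0.31) and Slc25a38 (difference -0.68), all lower in MLKL ASO mice, where 18.8% of all genes were apart in that direction. The gap between the nearest mice was narrow in each, 0.013 for Alas2, 0.011 for Fech and 0.023 for Slc25a38. In the exact two-sided permutation test no member went below p = 0.1, the smallest possible here. Cpox differed by 0.14 and Slc25a37 by -0.18, both with overlapping groups, and each changed sign when a control ASO mouse was left out (-0.037 for Cpox without 1601, 0.038 for Slc25a37 without 1608).

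With the erythroid mean as a covariate in edgeR, 5 of 9 members were above 0 and the median log2 fold change was 0.019, against 0.57 without it. Alas2 was then at -0.67, Ppox at -0.28, Slc25a38 at -0.19 and Fech at -0.14, while Cpox was at 0.55 (edgeR adjusted p = 0.257). None passed the threshold (0 higher, 0 lower), and that model called 0 genes in either direction over the whole table. The erythroid level was correlated with the group but overlapped between groups, with a mean log2 CPM of 5.61 in MLKL ASO mouse 1607 and 6.02 in control ASO mouse 1601.

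**Figure D4:**
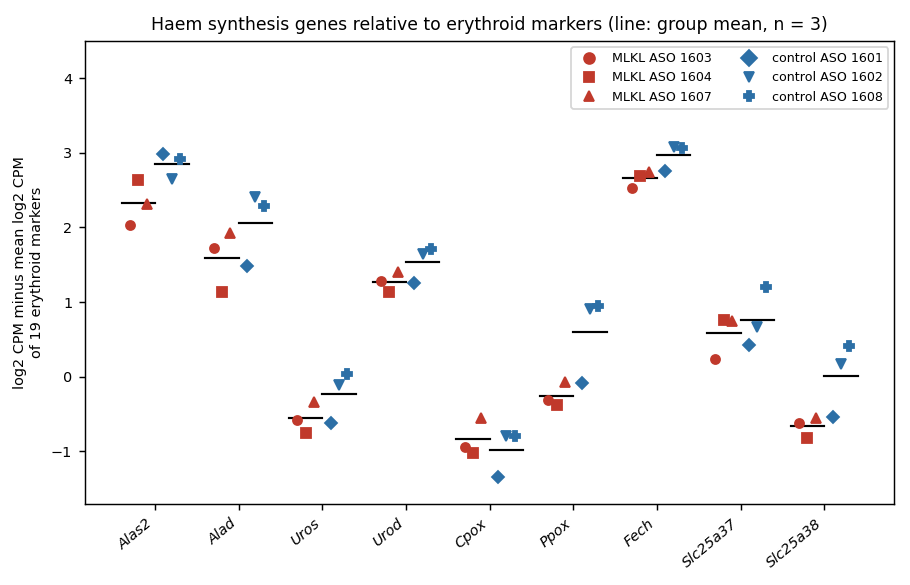
Level of each haem synthesis gene relative to the erythroid markers of the same mouse (log2 CPM minus the mean log2 CPM of 19 markers), MLKL ASO left and control ASO right in each pair, with the group mean (n = 3). Points of MLKL ASO mice lie below those of control ASO mice for Alas2, Fech and Slc25a38, and the groups overlap for the other members.

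Markers of other cell types also varied between the libraries, and their part in the haem gene levels was not tested. All 10 cycling genes were above 0 with a median log2 fold change of 0.90 and a summed level of 735 to 1015 CPM in MLKL ASO and 321 to 639 CPM in control ASO mice. At an unadjusted p under 0.05, 8 of these 10 were higher in MLKL ASO mice, where 4.86% of all genes were. The groups did not overlap in 5 of the 10 cycling genes, all higher in MLKL ASO mice, where 8.73% of all genes were apart in that direction. Tpx2, which helps to build the mitotic spindle, stood at 73.9 ± 9.61 CPM in MLKL ASO and 38.0 ± 11.8 CPM in control ASO mice (SD, n = 3 each). All 8 megakaryocyte markers were above 0 with a median of 1.05. Their sums were 1334 to 2650 CPM in MLKL ASO mice and 973, 1566 and 68.8 CPM in control ASO mice 1601, 1602 and 1608. Without mouse 1608 these sums overlap. Gp1ba, a platelet receptor subunit, stood at 45.8 ± 16.3 CPM in MLKL ASO and 21.2 ± 15.0 CPM in control ASO mice, with 4.63 CPM in mouse 1608. The 9 neutrophil markers were all above 0 with a median of 0.49 and sums of 751 to 1949 CPM in MLKL ASO and 246 to 1700.2 CPM in control ASO mice. Mpo, the myeloperoxidase of neutrophil granules, stood at 173 ± 132 CPM in MLKL ASO and 73.7 ± 67.7 CPM in control ASO mice. All 9 T cell markers and all 8 B cell markers were below 0, with medians of -1.17 and -0.80. The groups did not overlap in 9 of 9 T cell markers and 4 of 8 B cell markers, all lower in MLKL ASO mice, where 10% of all genes were apart in that direction. T cell sums were 155 to 178 CPM in MLKL ASO and 236 to 476 CPM in control ASO mice, and Cd5 stood at 18.8 ± 1.49 CPM in MLKL ASO and 28.0 ± 0.182 CPM in control ASO mice. B cell sums were 663 to 1154 CPM in MLKL ASO and 1016 to 2031 CPM in control ASO mice, and Cd22 stood at 45.4 ± 7.72 CPM in MLKL ASO and 91.2 ± 37.4 CPM in control ASO mice. Of 10 macrophage markers 4 were above 0, with a median of -0.054 and sums of 693 to 911 CPM in MLKL ASO and 525 to 1068 CPM in control ASO mice, and Csf1r stood at 47.6 ± 6.34 CPM in MLKL ASO and 72.8 ± 43.6 CPM in control ASO mice. Of 10 endothelial markers 3 were above 0, with a median of -0.14, and Emcn, which encodes endomucin, stood at 46.1 ± 6.73 CPM in MLKL ASO and 34.0 ± 4.40 CPM in control ASO mice. No marker of these lists was at 0 in all libraries (0 in each list), and each list had 0 members past the edgeR threshold.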

How the data were processed

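The authors deposited a table of estimated counts per gene symbol (1 column per mouse), in which 69.3% of values are not whole at a tolerance of 1e-06. Per the submitters' processing notes the tools were fastp 0.20.1, Salmon 1.3.0 and DESeq2, and per the labels' protocols libraries came from a directional messenger RNA kit. The genome build, annotation and strand setting were not given in the sources used here. The authors' deposited table of results gives, per the file headers, a mean normalised count (a signal), a log2 fold change with its standard error, a Wald score and p-values. Its log2 fold changes had the sign of MLKL ASO minus control ASO computed here for 93.6% of 19724 genes, so they are read in that direction.

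Estimated counts were rounded. The 4 rows whose symbol is a number (at most 0.00173% of a library) were dropped, and 0 columns lacked a sample. Genes passed edgeR's default expression filter (19741), with TMM scaling and the two-sided quasi-likelihood test (R 4.3.3, edgeR 4.0.16), adjusted by Benjamini-Hochberg over all genes at 0.05. Intervals are at 95%. Log2 levels use a prior count of 2. Members and lists were chosen with earlier results of these data known. Genes named are the members, listed partners, the smallest p of each list, and the 5 nearest to Alas2 and Alad; some listed genes are not reported here. Mouse numbers do not recur and no batch is labelled, so no pairing or batch term was fitted. The edgeR p-values set a group difference against the variation between these mice, estimated with information shared across genes. Alternatives were 2 other scalings, 2 filters, a robust fit, DESeq2 1.42.0, limma-voom (limma 3.58.1), removal of blood receptor and globin genes, an erythroid covariate and leaving out each mouse. The fits were tested on simulated data. In GENCODE M21, exons of other genes on the opposite strand cover 15.5% of the exonic bases of Alas2, 17.5% of Ppox, 6.33% of Slc25a37 and 3.06% of Cpox.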

Additional observations from a re-analysis of the deposited data

How the results depend on the processing

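No paired analysis was possible because the mouse numbers do not recur between the groups. Over 135 refits of single members, 127 kept direction and side of the threshold, 7 changed direction and 1 crossed the threshold. This count says nothing about the size of a difference. Urod counts as kept with the erythroid covariate, although its log2 fold change went from 0.62 to 0.019. DESeq2 alone called a member (Cpox, 1 higher), while the erythroid covariate took the median of the members to 0.019 and turned Alas2 (-0.67), Ppox (-0.28), Slc25a38 (-0.19) and Fech (-0.14) negative. With single mice left out the median ran from 0.33 to 0.93, Alas2 from -0.18 to 0.97 and Ppox from -0.14 to 0.24 (-0.0036 without mouse 1608). The erythroid median ran from 0.64 to 1.34. Relative to the erythroid level, leaving out mice gave -0.037 to 0.24 for Cpox, -0.35 to 0.038 for Slc25a37 and -1.09 to 0.14 for Alas1. The cause of these changes was not tested. Over all genes, edgeR called 1 higher and 1 lower, upper quartile scaling 2 and 2, DESeq2 237 and 290, limma-voom 9 and 15, and a table without globin and lymphocyte receptor genes 4 and 3. The erythroid covariate called 0 and 0. Leaving out single mice gave 0 to 10 higher (10 without 1608, 0 without 1602, 1603, 1604 or 1607) and 0 to 9 lower (9 without 1608, 3 without 1601, 0 without 1602, 1603, 1604 or 1607). The member with the fewest counts, Cpox, had 1055 or more in each library.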

Other observations

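Of the mitoferrin genes, Slc25a37 had a higher and Slc25a28 a lower mean in MLKL ASO mice, and neither passed the edgeR threshold. The ratio of Slc25a37 to Slc25a28, formed after their values were seen, was 8.45, 19.8 and 8.42 in MLKL ASO mice 1603, 1604 and 1607 and 6.58, 2.76 and 4.89 in control ASO mice 1601, 1602 and 1608. The groups were already apart for Slc25a28 alone, so this ratio of CPM values is a description and no support for a difference. The ratio of Alas2 to Alas1 overlapped, with 0.475 to 1.49 in MLKL ASO mice and 0.442 to 2.56 in control ASO mice.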
